A study of Rattus norvegicus with 20 samples.

Results

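The nuclear genes of the respiratory chain and of ATP synthase were described in iliac arteries of old and young rats, without injury and after balloon injury. Their members were taken by symbol alone, from the array platform's annotation: symbols that start with Ndufa, Ndufb, Ndufc, Ndufs or Ndufv (complex I), Sdh (complex II), Uqcr (complex III), Cox4 to Cox8 (complex IV) and Atp5 (ATP synthase), leaving out Ndufaf. This gave 87 genes on 106 probes, of 16421 genes with a symbol. Complex I holds 34 of them, complex II 8, complex III 8, complex IV 17 and ATP synthase 20. The prefixes also take in some neighbours of the subunits proper. They are Sdhaf1 to Sdhaf4, which help to assemble complex II, Atp5if1, the inhibitor of ATP synthase, and copies or pseudogenes such as Ndufs6-ps1, Ndufa13-ps1, Cox6c-ps1 and Atp5hl1. Ndufa4 is counted by its name with complex I, although its protein is now placed in complex IV. The subunits encoded by mitochondrial DNA were not analysed here.

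All rats were of the Fisher strain, and per the labels the old rats were 22 months and the young rats 3 months old. The paper's abstract and methods give other ages for the young rats. Each of 20 two-colour Agilent Whole Rat Genome arrays carried RNA of 2 iliac artery samples, 1 in Cy5 and 1 in Cy3, and gave the log2 ratio of both. Old were set against young arteries 30 min after injury by an inflated balloon catheter (3 arrays), 3 days after it (4 arrays), 7 days after it (4 arrays) and without injury (healthy, 3 arrays). Old with old arteries and young with young arteries shared an array 30 min after injury in 3 arrays each. The labels give both arteries of an array the same time after injury, while the study's own titles call the partner of an injured artery a control in some comparisons, so an age ratio after injury may also hold injury. For arrays within an age no contrast between the channels is named here. Their values show how far these genes moved when age was equal, and they too may hold injury. The old and young rats had different sources, a national ageing colony and a commercial breeder, so age and supplier cannot be told apart. No source ties arrays to animals, and p-values then measure only the spread between these samples.

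Oxidative phosphorylation makes most of the ATP of a resting cell. Complexes I and II pass electrons from NADH and succinate to ubiquinone, complex III hands them on to cytochrome c and complex IV to oxygen, and the protons that complexes I, III and IV pump drive ATP synthase. Most subunits are encoded in the nucleus, and several subunits of complex IV exist as isoforms of different tissues. Vascular smooth muscle, the main cell of the arterial wall, uses glycolysis beside respiration.

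A positive ratio here stands for more RNA in the old artery. The deposited ratios were taken as Cy5 over Cy3, and arrays whose old artery was labelled with Cy3 had their sign reversed. The sources do not state this direction. At 3 and 7 days, arrays of opposite dyes correlated negatively after turning (r over all probes −0.43 to −0.27 at 3 days and −0.37 to −0.19 at 7 days), and arrays with the same dyes positively (0.33 to 0.39). For this reason most fitted ratios of the genes described singly, and the main counts and medians, are also given with the ratios as deposited. In whole arteries, fewer cells of a type and less RNA per cell cannot be told apart, and ratios do not show at what level a gene was expressed, so neither the tissue nor the presence of a subunit can be checked by its level. Between 6.53% and 34% of the probes of an array had an exact value that was shared by 20 or more probes. The share among the 106 probes of these genes was 0.943% to 9.43%, and 93 of them had such a value on no array.

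On the arrays of healthy arteries the median log2 ratio of the 87 genes was 0.04, 0.25 and 0.16. At 30 min it was −0.15, 0.02 and −0.46. At 3 days it was 0.06, 0.09, 0.08 and 0.15, and at 7 days 0.11, −0.002, 0.03 and 0.0005. The healthy and 3 day arrays thus lay above 0 by little when turned. As deposited the healthy medians were −0.04, 0.25 and −0.16 and those at 3 days −0.06, 0.09, −0.08 and 0.15, so that 4 of these 7 arrays lay below 0. The 30 min arrays, with −0.15, −0.02 and −0.46 as deposited, were all below 0 in that reading. The arrays within an age moved as well, with 0.10, −0.19 and −0.32 for old versus old and 0.06, 0.07 and 0.20 for young versus young. Their range over 6 arrays was −0.32 to 0.20, beside −0.46 to 0.25 over the 14 old versus young arrays. A range grows with the number of arrays, so these widths do not show which set moved more. Without the third array at 30 min the lowest old versus young median was −0.15. Every median over all genes lay between −0.12 and 0.08. Replicate 3 at 30 min had the widest middle 50% of the 87 genes, 0.82, against 0.53 for all genes. Young versus young replicate 3 came near it, with 0.74 against 0.61. On replicate 3 at 30 min 66 of the 87 genes lay below 0 and 21 above. The number above 0 was 26 on replicate 1 at 30 min, and 26 and 25 on old versus old replicates 2 and 3. On the remaining arrays it was 43 or more.

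**Figure D1:**
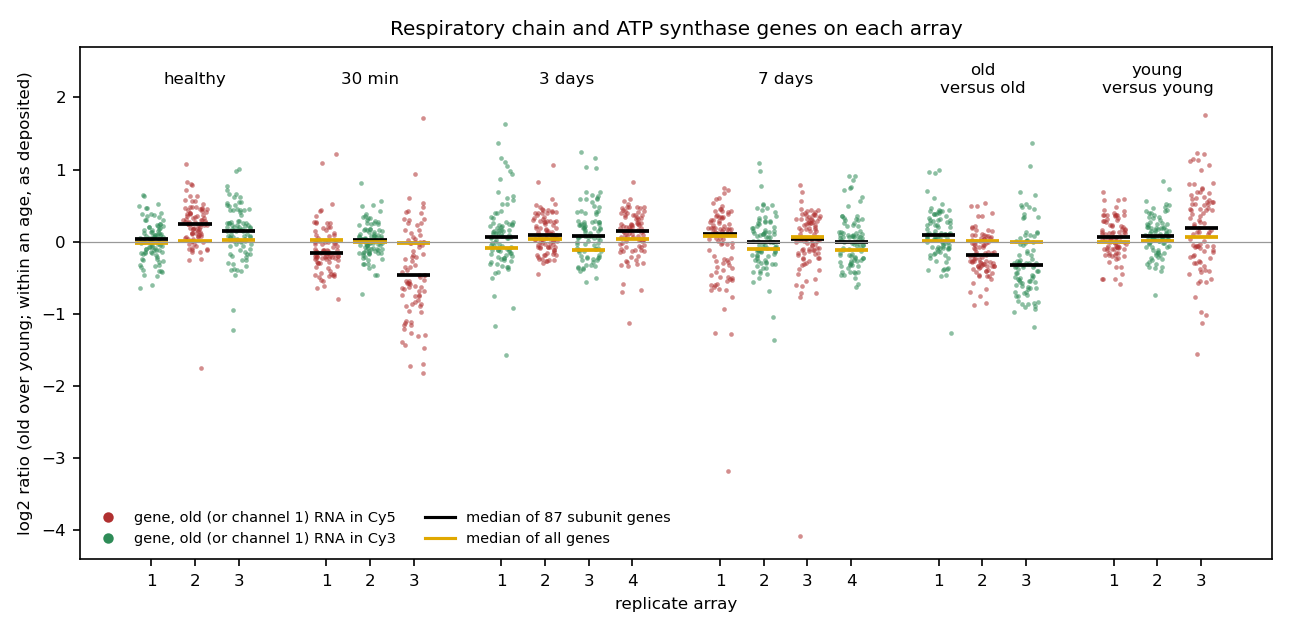
Log2 ratio of each of the 87 genes on each of the 20 arrays, by comparison and replicate, with the median of the 87 genes (black bar) and of all 16421 genes (yellow bar). Points are coloured by the dye of the old artery, or of channel 1 within an age. The 3 medians at 30 min run from −0.46 to 0.02, and those within an age from −0.32 to 0.20.

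All arrays entered 1 limma fit with a coefficient for each comparison and 1 for the dye. The median of the fitted log2 ratios was 0.14 in healthy arteries, −0.19 at 30 min, 0.10 at 3 days and 0.01 at 7 days, beside 0.03, −0.02, −0.02 and −0.01 over all genes. In healthy arteries 75 of the 87 genes had a fitted ratio above 0, where 56.6% of all genes did. At 30 min 21 of 87 did (45.4% of all genes), at 3 days 68 (45.4%) and at 7 days 50 (48.8%). Genes on an array share its RNA and are not independent, so these counts carry no test. Without the third array at 30 min the median there was −0.04, with 32 of 87 genes above 0, and without the second healthy array the healthy median was 0.08, with 53 above 0. Erythroid markers moved further in each comparison when turned by dye, which endothelial and macrophage markers did not. The 5 erythroid markers measured had median fitted ratios of −0.66 in healthy arteries, −0.37 at 30 min, 0.38 at 3 days and 0.58 at 7 days (0.12, −0.09, 0.40 and 0.30 as deposited). The 13 endothelial markers had 0.11, −0.12, −0.14 and 0.27 (−0.04, −0.11, 0.40 and 0.17 as deposited). For the 15 macrophage markers it was 0.08, 0.17, −0.08 and −0.10 (−0.10, 0.12, 0.15 and 0.21 as deposited). The 12 smooth muscle markers had 0.40, 0.16, 0.11 and 0.05 (0.03, 0.04, 0.20 and −0.07 as deposited). For 20 skeletal muscle markers it was −0.52, −0.18, 0.03 and 0.01 (−0.23, 0.13, −0.03 and −0.08 as deposited). The 16 adipocyte markers had 0.04, 0.06, −0.04 and −0.22 (−0.19, −0.05, 0.21 and 0.04 as deposited). For 13 proliferation markers it was −0.05, −0.01, −0.02 and 0.29 (0.02, 0.18, 0.11 and 0.21 as deposited). The part of these markers in the ratios of the 87 genes was not tested.

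Single genes seldom passed the test. At a Benjamini-Hochberg adjusted p under 0.05 in limma, none of the 87 genes was called in healthy arteries (0.0365% of all genes were), none at 30 min (0.0183%) and none at 3 days (0%). At 7 days 1 was called, Cox7b2 (0.974% of all genes). At an unadjusted p under 0.05 the number was 4 genes in healthy arteries (3.74% of all genes), 9 at 30 min (4.84%), 5 at 3 days (4.29%) and 4 at 7 days (10.8%). The 9 at 30 min were 10.3% of the 87 genes, with 7 of them below 0 (1.91% of all genes) and 2 above (2.94%), and the 5 at 3 days were all above 0 (1.76%). An unmoderated test of each comparison's own arrays against 0 gave 2, 0, 7 and 4 genes at an unadjusted p under 0.05. Of all genes 4.71%, 4.48%, 2.2% and 3.87% passed it. None of the 87 had a 2-fold change as well, where 25, 25, 10 and 70 of all genes did. No gene on the arrays passed after Benjamini-Hochberg adjustment. Of the 87 genes, 23 lay above 0 on each of the 3 healthy arrays (12.4% of all genes did) and 1 below (12.1%). At 30 min it was 5 above (13.1%) and 23 below (12.5%), at 3 days 15 above (3.06%) and 0 below (4.32%), and at 7 days 6 above (3.87%) and 1 below (6.07%). As deposited, 1 gene was above and 1 below in healthy arteries (6.2% and 7.65% of all genes), 5 above and 27 below at 30 min (17.5% and 16.1%), 16 above and 11 below at 3 days (22.9% and 14.9%), and 27 above and 20 below at 7 days (21.6% and 12.8%).

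By complex, all 34 genes of complex I had a fitted ratio above 0 in healthy arteries, with a median of 0.15, and 27 of the 34 lay below 0 at 30 min, with a median of −0.18. Without the second healthy array, 22 of the 34 were above 0, and without the first or the third 32 and 30. The count also depends on the reading of the ratios, since 21 of 34 were above 0 with the values as deposited (47% of all genes). In complex IV 11 of 17 genes were above 0 in healthy arteries, 2 at 30 min, and 10 each at 3 and 7 days. Of the 20 ATP synthase genes 18 were above 0 in healthy arteries, 6 at 30 min, 17 at 3 days and 14 at 7 days, with medians of 0.16, −0.19, 0.16 and 0.02. Complexes II and III, with 8 genes each, had medians of 0.05 and 0.09 in healthy arteries and −0.10 and −0.11 at 30 min. Single arrays decided part of this. Without the third array at 30 min the median of complex I there was −0.04, with 21 of 34 genes below 0, that of complex IV −0.06, with 7 of 17 above 0, and that of ATP synthase −0.05. In healthy arteries the median of complex IV was −0.03, with 8 of 17 above 0, without the third array, and those of complexes II and III were −0.07 and −0.02 without the second. At 7 days the medians of all 5 complexes were within 0.05 of 0. As deposited, the median of complex III was 0.05 at 30 min, and those of complex II and ATP synthase were −0.02 and −0.004 at 3 days.

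**Figure D2:**
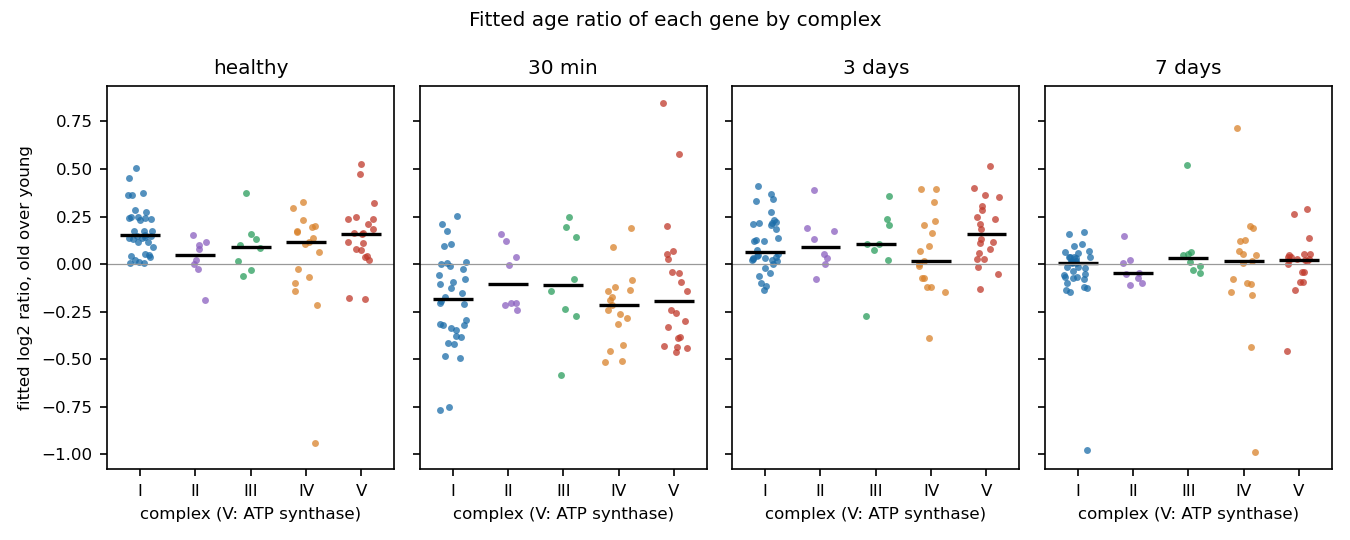
Fitted log2 ratio of old over young arteries for each of the 87 genes, by complex (horizontal axis, V is ATP synthase) and comparison (panels), with black bars at the medians. In healthy arteries all 34 complex I genes lie above 0, and at 30 min 2 ATP synthase genes stand above the rest, at 0.84 and 0.58.

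The promoters of 73 of the 87 genes could be matched by gene ID to RefSeq sequences of build GRCr8, each running from 250 bases before to 50 after the start of the gene. Respiratory genes are known as targets of the factors NRF1, GABP (an ETS factor) and YY1, so the letters GCGCA, any base, then GCGC (NRF1), CCGGAAG (ETS) and AAGATGGCG (YY1) were searched on both strands. They were found in 15, 23 and 9 of the 73 promoters, that is 20.5%, 31.5% and 12.3%, beside 4.71%, 9.22% and 1.93% of the promoters of 27457 genes. At least 1 of the 3 stood in 41 of the 73 (56.2%, beside 14.3%). A match is a description of the letters and not a site. Sequences are shown for 6 genes that are described singly here, 5′ to 3′ on the strand of the gene, with the matched letters in capitals. Ndufa11 has 2 overlapping NRF1 matches, Ndufa6 an ETS and a YY1 match, Ndufb7 and Atp5f1a an ETS match each, and Atp5f1b and Cox7b2 none.
Ndufa11 (chr9:1637364-1637663, + strand): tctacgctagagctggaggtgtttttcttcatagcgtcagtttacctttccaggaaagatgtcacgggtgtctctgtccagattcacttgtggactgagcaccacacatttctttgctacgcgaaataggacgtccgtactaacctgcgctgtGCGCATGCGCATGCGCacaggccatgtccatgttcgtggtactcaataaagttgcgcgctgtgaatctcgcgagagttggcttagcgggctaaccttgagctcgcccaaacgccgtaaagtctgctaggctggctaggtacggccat
Ndufa6 (chr7:115750268-115750567, - strand): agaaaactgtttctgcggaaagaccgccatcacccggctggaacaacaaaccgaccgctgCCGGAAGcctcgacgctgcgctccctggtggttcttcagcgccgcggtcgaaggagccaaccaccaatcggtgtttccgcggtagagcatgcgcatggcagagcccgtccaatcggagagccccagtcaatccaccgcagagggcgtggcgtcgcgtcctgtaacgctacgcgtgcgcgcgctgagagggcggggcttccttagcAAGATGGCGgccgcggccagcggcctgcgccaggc
Ndufb7 (chr19:41477242-41477541, - strand): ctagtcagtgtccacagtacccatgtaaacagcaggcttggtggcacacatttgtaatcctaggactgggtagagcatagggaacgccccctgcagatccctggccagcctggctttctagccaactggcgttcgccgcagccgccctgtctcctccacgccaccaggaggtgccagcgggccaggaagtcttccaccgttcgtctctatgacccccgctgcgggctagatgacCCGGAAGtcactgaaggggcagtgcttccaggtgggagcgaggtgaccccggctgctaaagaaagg
Atp5f1a (chr18:73567287-73567586, + strand): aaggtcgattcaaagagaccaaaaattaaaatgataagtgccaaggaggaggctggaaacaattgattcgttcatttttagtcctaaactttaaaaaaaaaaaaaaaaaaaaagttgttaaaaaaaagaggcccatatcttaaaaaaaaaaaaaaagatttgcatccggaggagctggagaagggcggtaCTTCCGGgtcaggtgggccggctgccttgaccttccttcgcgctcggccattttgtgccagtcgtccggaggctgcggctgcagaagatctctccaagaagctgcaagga
Atp5f1b (chr7:1099808-1100107, + strand): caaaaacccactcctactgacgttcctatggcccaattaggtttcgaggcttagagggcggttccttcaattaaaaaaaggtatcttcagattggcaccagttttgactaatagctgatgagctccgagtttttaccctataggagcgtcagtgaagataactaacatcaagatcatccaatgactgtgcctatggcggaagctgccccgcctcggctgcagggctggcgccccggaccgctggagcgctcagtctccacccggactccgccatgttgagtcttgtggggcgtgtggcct
Cox7b2 (chr14:37046831-37047130, + strand): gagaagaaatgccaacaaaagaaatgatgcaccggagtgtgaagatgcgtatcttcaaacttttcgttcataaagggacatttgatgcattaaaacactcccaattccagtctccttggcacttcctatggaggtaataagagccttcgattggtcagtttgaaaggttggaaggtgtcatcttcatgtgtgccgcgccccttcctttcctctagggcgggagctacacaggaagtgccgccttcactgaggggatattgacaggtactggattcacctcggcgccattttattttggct

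The healthy arteries give the age ratio without injury. The highest ratio among genes above 0 on every array belonged to Ndufb7, an accessory subunit of the membrane arm of complex I, with 0.19, 0.56 and 0.63 on the 3 arrays. Its fitted log2 ratio was 0.50 (SE 0.19, limma adjusted p = 1), a 1.42-fold ratio, and −0.04 as deposited. The copies Ndufs6-ps1 (0.07, 0.64 and 0.51) and Ndufa13-ps1 (0.09, 0.39 and 0.55) followed, with fitted ratios of 0.45 and 0.37 (0.04 and −0.06 as deposited). Both are listed as pseudogenes in RefSeq, and their probes may read the subunit genes Ndufs6 and Ndufa13 as well. Cox5a, a subunit of complex IV that touches its catalytic core, was the only gene below 0 on all 3 arrays, at −0.15, −0.25 and −0.02, with a fitted ratio of −0.21 (−0.04 as deposited).

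Some genes differed in sign between the 3 healthy arrays. The alpha subunit of ATP synthase, Atp5f1a, had −0.60, 0.83 and 0.99, and the beta subunit, Atp5f1b, −0.41, 0.79 and 1.01. Both form the catalytic head, and on each array their values were close to each other, with the first array opposite to the other 2. Their fitted ratios were 0.47 and 0.52 (0.19 and 0.14 as deposited). Cox8b, the isoform of subunit VIII of heart and skeletal muscle in rodents, had 0.40, −1.75 and −1.22, a fitted ratio of −0.94 (SE 0.36, limma adjusted p = 1) and −0.39 as deposited. Skeletal muscle markers ran the same way: their median over 20 genes was 0.43, −1.22 and −0.89 on the same arrays, and Ckm, the muscle creatine kinase, had 2.02, −2.40 and −2.04. Skeletal actin, Acta1, did not, with −1.11, 0.03 and −0.002. Smooth muscle markers (12 genes) had medians of −0.03, 0.64 and 0.65, the order of Atp5f1a and Atp5f1b. The part of these markers in the ratios was not tested. Replicates 1 and 3 of the healthy arrays, of the same dyes, correlated at −0.61 over the 87 genes.

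At 30 min the 2 subunits of the catalytic head were above 0 and most others below. Atp5f1b had 1.10, −0.10 and 1.71 on the 3 arrays, a fitted ratio of 0.84 (SE 0.25, limma adjusted p = 0.822) and 0.90 as deposited. Atp5f1a had 1.22, −0.23 and 0.95, a fitted ratio of 0.58 (SE 0.25, limma adjusted p = 1) and 0.75 as deposited. The second array, with the old artery in Cy3, was the one below 0 for both. Without the third array the fitted ratio of Atp5f1b was 0.50, and without the second 1.32. With array weights in the fit, Atp5f1b passed the test at 30 min with 0.78 (limma adjusted p = 0.0337), the only 1 of its 34 alternatives in which it did. The share of all genes called with these weights is not given here, so the call cannot be read as particular to this gene.

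On the other side stood accessory subunits of complex I. Ndufa11, a membrane arm subunit, had −0.53, −0.09 and −1.69, a fitted ratio of −0.77 (SE 0.25, limma adjusted p = 0.855). Ndufa6, a subunit of the matrix arm, had −0.79, 0.15 and −1.81, a fitted ratio of −0.75 (SE 0.25, limma adjusted p = 0.892). Ndufb9, a further membrane arm subunit, had −0.49, −0.10 and −0.86, a fitted ratio of −0.50 (SE 0.15, limma adjusted p = 0.845). It passed only with array weights (−0.44, limma adjusted p = 0.031), where the share of all genes called is not given. In all 3 the lowest value came from the third array and the highest from the second, and without the third array Ndufa11 stood at −0.31. As deposited, the fitted ratios were −0.70 for Ndufa11, −0.89 for Ndufa6 and −0.43 for Ndufb9. Ndufa6 and Ndufb9 were singled out after their values were seen.

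Other genes below 0 on every 30 min array were spread over the chain. Uqcr10, a small subunit of complex III, had −0.29, −0.06 and −1.31, and Cox8b −0.55, −0.24 and −0.98. Their fitted ratios were −0.58 and −0.51 (limma adjusted p = 0.986 for Uqcr10), and −0.51 and −0.35 as deposited. Only 5 of the 87 genes lay above 0 on all 3 arrays. The highest of these were Ndufs4, a complex I subunit needed for its assembly, with 0.19, 0.04 and 0.41, the copy Ndufa10l1 with 0.06, 0.25 and 0.26, and Uqcrb of complex III with 0.01, 0.04 and 0.48. As deposited, their fitted ratios were 0.18, −0.0015 and 0.14. For Uqcrb, 4 probes are averaged, and in healthy arteries their fitted ratios differed by up to 0.73.

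**Figure D3:**
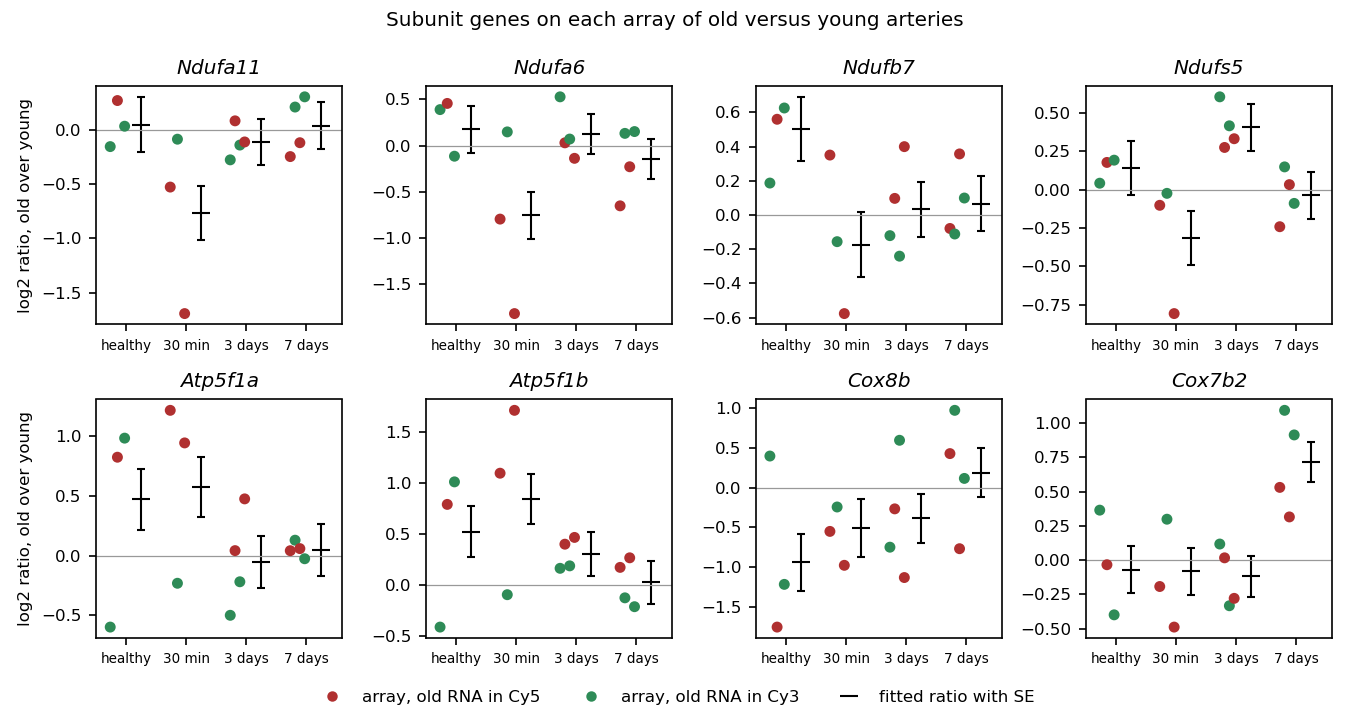
Log2 ratio of old over young arteries for 8 genes on each array (points, coloured by the dye of the old artery), with the fitted ratio and its SE (black). The vertical scale differs between panels. The third array at 30 min is the lowest for Ndufa11 (−1.69) and Ndufa6 (−1.81), and the 4 arrays at 7 days lie above 0 for Cox7b2.

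At 3 days after injury the ratios were small and mostly above 0. Ndufs5, an accessory subunit on the outer side of the membrane arm of complex I, had 0.61, 0.28, 0.42 and 0.33 on the 4 arrays, a fitted ratio of 0.41 (SE 0.15, limma adjusted p = 0.984). It was also above 0 on all healthy arrays (0.04, 0.18 and 0.19) and below 0 on all 30 min arrays (−0.10, −0.02 and −0.81). Atp5pd, subunit d of the peripheral stalk of ATP synthase, had 0.25, 0.14, 1.03 and 0.19, a fitted ratio of 0.40, and the pseudogene Atp5hl1 had 1.16, 0.09, 0.23 and 0.59, a fitted ratio of 0.51 (SE 0.17, limma adjusted p = 0.787). None of these genes had an array below 0, but with the ratios as deposited their fitted values were −0.10 for Ndufs5, −0.24 for Atp5pd and −0.18 for Atp5hl1.

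At 7 days Cox7b2, a copy of the complex IV subunit Cox7b known in humans mainly from testis, was the only gene past the test. It had 0.53, 1.09, 0.32 and 0.91 on the 4 arrays, a fitted log2 ratio of 0.71 (SE 0.15, 1.64-fold, limma adjusted p = 0.0253), and thus was higher in old than in young arteries on 4 of 4 arrays. The arrays of the other comparisons did not separate from 0, with 0.36, −0.03 and −0.40 in healthy arteries. Its only probe had a value shared by 20 or more probes on 7 arrays, replicates 3 and 4 at 7 days among them. The call was lost without replicate 1, 2 or 4 at 7 days (limma adjusted p = 0.0529, 0.105 and 0.0534), and as deposited the ratio was −0.29 (limma adjusted p = 0.372). Cox7b itself had 0.04, 0.008, 0.38 and 0.05 at 7 days.

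The other ratios at 7 days did not pass the test. Uqcrq, a small subunit of complex III, had 0.34, 0.78, 0.24 and 0.72, a fitted ratio of 0.52 (SE 0.20, limma adjusted p = 0.31) and −0.23 as deposited. Its only probe had a value shared by 20 or more probes on replicates 1, 3 and 4. Cox4i1, the common isoform of subunit IV, had 0.18, 0.11, 0.15 and 0.35, with −0.03 as the fitted ratio as deposited. Cox8c, known in humans as a testis isoform, had −0.51, −0.18, −0.71 and −0.34 and was the only gene below 0 on all 4 arrays (fitted ratio −0.44, limma adjusted p = 0.42, and −0.17 as deposited). Its only probe had such a shared value on 19 of the 20 arrays, all 4 at 7 days among them. Single arrays decided the 2 lowest fitted ratios, which were looked at after their values were seen. Ndufb11b had −3.17 on the first array and −0.69, −0.18 and 0.12 on the others, and Cox6c-ps1 had −4.08 on the third array and 0.01, −0.36 and 0.49 on the others.

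Whether the age ratio after injury differed from that in healthy arteries was tested as a contrast of the same fit. None of the 87 genes passed an adjusted p under 0.05 in limma at 30 min (0% of all genes did), 3 days (0.00609%) or 7 days (0.0304%). At an unadjusted p under 0.05, 8 genes passed at 30 min (1.31% of all genes), 2 at 3 days (4.18%) and 3 at 7 days (5.07%). All 8 at 30 min had a lower ratio than in healthy arteries (0.767% of all genes), 7 of them in complex I. Among them were Ndufa6 with a difference of −0.93 (SE 0.36), Ndufa11 with −0.81 (SE 0.36), Ndufb7 with −0.68 (SE 0.27) and Ndufb9 with −0.64 (SE 0.22, limma adjusted p = 1). The remaining gene was Atp5mc3, a subunit of the c ring of ATP synthase, with −0.56 (SE 0.26). As deposited, the difference was −0.93 for Ndufa6, −0.83 for Ndufa11, −0.03 for Ndufb7, −0.43 for Ndufb9 and −0.21 for Atp5mc3. These contrasts share the healthy arrays. For Cox7b2 the difference between 7 days and healthy arteries was 0.78 (SE 0.22, limma adjusted p = 0.624).

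Subunits of the cores of complexes I to III did not pass the test with the ratios turned by dye. Ndufs1 and Ndufv1, iron-sulphur and flavin subunits of complex I, had fitted ratios of 0.02 and 0.24 in healthy arteries, 0.10 and 0.01 at 30 min, −0.06 and −0.14 at 3 days and 0.02 and 0.17 at 7 days. Sdha and Sdhb, the flavin and iron-sulphur subunits of complex II, had 0.10 and 0.002 in healthy arteries, 0.16 and −0.24 at 30 min, 0.05 and 0.03 at 3 days and −0.05 and 0.02 at 7 days. In complex III, the core protein Uqcrc1 had 0.38, 0.14, −0.27 and 0.05 in healthy arteries and at 30 min, 3 days and 7 days, and Uqcrfs1, the Rieske iron-sulphur protein, had −0.06, −0.08, 0.11 and 0.01. As deposited, Uqcrc1 had −0.14 in healthy arteries and 0.59 at 3 days, and Ndufv1 0.50 at 3 days, each with the other sign than when turned.

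The tissue isoforms of complex IV gave no common picture. Cox4i1 and Cox4i2, the common isoform of subunit IV and the one known from lung, had fitted ratios of 0.19 and 0.10 in healthy arteries and −0.45 and −0.26 at 30 min. Cox6a1 and Cox6a2, the common and the muscle isoform of subunit VIa, had 0.23 and 0.07 in healthy arteries and −0.51 and −0.13 at 30 min. For subunit VIII the common isoform Cox8a and the muscle isoform Cox8b had 0.29 and −0.94 in healthy arteries and −0.21 and −0.51 at 30 min. In healthy arteries the ratio of Cox8b thus had the other sign than that of Cox8a (−0.39 and 0.08 as deposited), while Cox6a2, with 0.23, −0.02 and −0.20 on the 3 arrays, stayed near 0. The values of Cox4i1 and Cox6a1 at 30 min were lowest on the third array, at −1.72 and −1.43, where the first array gave 0.27 and −0.47 and the second 0.13 and 0.35.

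With the ratios as deposited, the median of the 87 genes was 0.03 in healthy arteries, −0.24 at 30 min, 0.003 at 3 days and −0.008 at 7 days. At 30 min 21 of 87 genes were above 0 in either reading (52.4% of all genes as deposited). At 3 days 44 were above 0 (57.8% of all genes), in place of 68. In this reading 3 genes passed the test at 3 days, where 12.8% of all genes did: Cox4i2 with 0.90 (limma adjusted p = 0.00153), Uqcrc1 with 0.59 (limma adjusted p = 0.0379) and Uqcrfs1 with −0.38 (limma adjusted p = 0.0454). At 7 days 5 passed, beside 16.9% of all genes: Cox6a2 with 0.73, Sdhaf3 with 0.43, Sdhc, a membrane anchor of complex II, with −0.66, Sdhaf4 with −0.76 and Cox7c with −0.79. The share of the 87 genes called was 3.45% and 5.75%. The deposited ratio of Cox4i2 at 3 days was 1.56, 0.82, 0.37 and 0.83, while turned by dye replicates 1 and 3 read −1.56 and −0.37. The sources do not settle which reading is the age ratio.

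**Figure D4:**
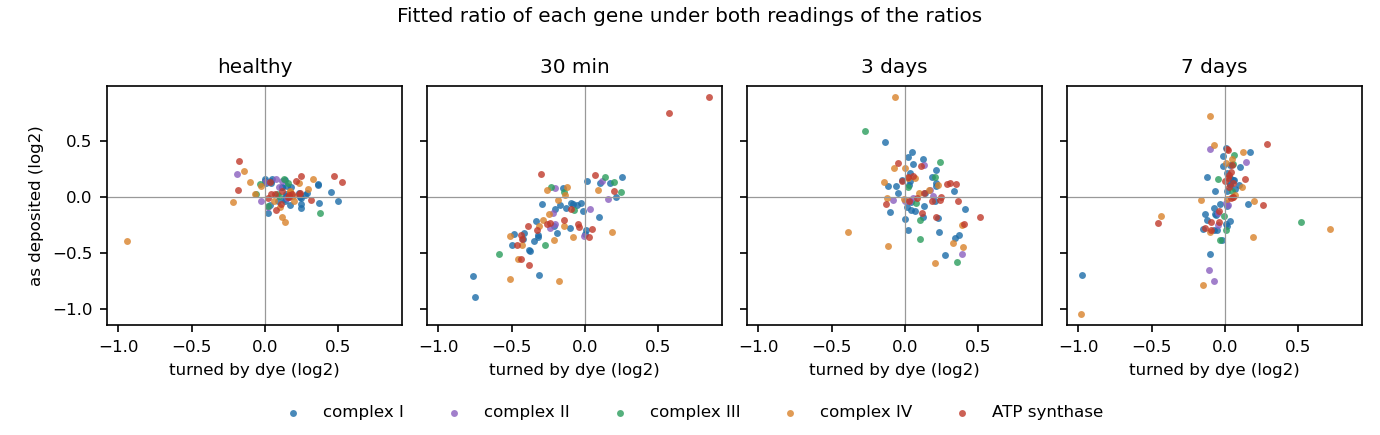
Fitted log2 ratio of each of the 87 genes with old versus young arrays turned by dye (horizontal axis) and as deposited (vertical axis), by comparison (panels) and complex (colour). At 30 min both medians lie below 0 (−0.19 turned and −0.24 as deposited), while at 3 days they are 0.10 and 0.003.

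Other genes of the mitochondrion and other housekeeping complexes were measured alongside, and in the comparisons of old with young arteries none of the genes of the lists named here passed an adjusted p under 0.05 in limma. The 37 assembly factors of the complexes had median fitted ratios of 0.11 in healthy arteries, 0.04 at 30 min, 0.05 at 3 days and 0.03 at 7 days. For 72 proteins of the mitochondrial ribosome they were 0.12, −0.07, 0.06 and 0.03, for 58 of the cytosolic ribosome 0.18, −0.22, −0.12 and −0.03, and for 41 of the proteasome 0.23, 0.09, −0.01 and 0.07. As deposited, the healthy medians of these lists were 0.05, 0.05, −0.08 and 0.07, with 13 of the 58 genes of the cytosolic ribosome above 0, in place of 51. At 30 min both ribosomes were below 0 in either reading, with −0.06 and −0.29 as deposited. On the third array at 30 min the cytosolic ribosome had −0.75, the mitochondrial ribosome −0.22 and the proteasome 0.03, beside −0.46 for the 87 genes. The 16 genes of the citrate cycle and pyruvate dehydrogenase had medians of 0.05, 0.09, −0.06 and −0.03 and the 18 of glycolysis 0.18, −0.07, −0.05 and 0.13.

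**Figure D5:**
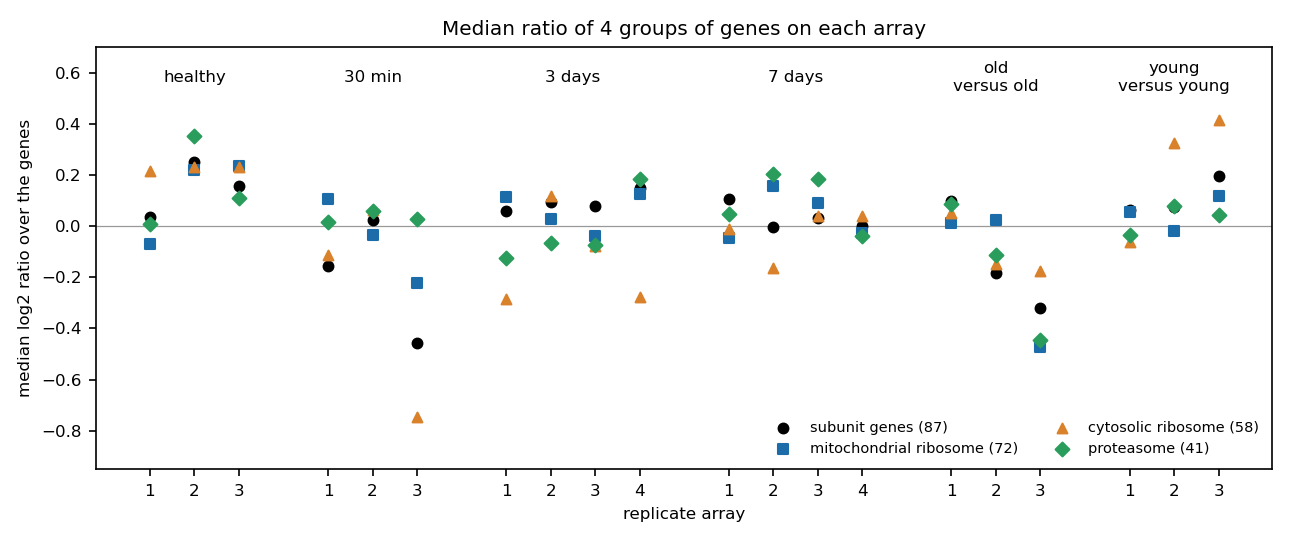
Median log2 ratio of the 87 subunit genes, of 72 genes of the mitochondrial ribosome, 58 of the cytosolic ribosome and 41 of the proteasome on each of the 20 arrays. On the third array at 30 min the medians run from −0.75 for the cytosolic ribosome to 0.03 for the proteasome.

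Of the 14 regulators of respiratory genes, none passed the test. Ppargc1a, the coactivator that drives mitochondrial biogenesis, had 1.58, 1.01 and 0.25 on the healthy arrays, a fitted ratio of 0.97 (SE 0.42, limma adjusted p = 1). At 7 days it had 2.86, −0.21, 0.26 and 1.21, a fitted ratio of 1.03 (SE 0.36, limma adjusted p = 0.241), and as deposited −0.16 in healthy arteries and 0.53 at 7 days. Nrf1, Gabpa, Yy1 and Tfam, which act on nuclear respiratory genes and, for Tfam, on mitochondrial DNA, had fitted ratios of 0.34, −0.08, 0.22 and 0.10 in healthy arteries and 0.29, 0.04, 0.25 and 0.33 at 30 min. As deposited, the healthy values were −0.28, 0.04, 0.002 and 0.18. The heart and muscle ADP/ATP carrier Slc25a4, which brings ATP out of the mitochondrion, had 0.56 in healthy arteries (SE 0.21, limma adjusted p = 1) and 0.09 as deposited. It was above 0 on 3 of 3 arrays.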

How the data were processed

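RNA of iliac arteries was labelled with Cy3 and Cy5, hybridised to two-colour Agilent arrays and scanned by the authors, who normalized each array by Lowess and applied criteria of spot quality. For 41010 probes the deposited values give the log2 ratio of the 2 channels, with array medians near 0. The step that made the column is not given in the sources used here. Another 1 row without a probe name was left out. For the comparison of groups the methods name RMA and one-way ANOVA without adjustment. Gene symbols came from the platform annotation (21394 probes with 1 symbol, 19616 without), and all 87 members matched a current RefSeq gene by ID.

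Old versus young arrays were multiplied by −1 where the old channel was Cy3, and arrays within an age were kept as deposited. Probes of a gene were averaged (15 of the 87 genes have several). In each comparison 3 to 9 of these 15 genes had probes whose fitted ratios differed in sign. All 20 arrays entered 1 fit in limma 3.58.1 (R 4.3.3) with 6 coefficients for the groups and 1 for the dye, which left 13 residual degrees of freedom, beside a prior worth 4.34. Benjamini-Hochberg adjustment ran over 16421 genes, and a gene was called at an adjusted p under 0.05. Precision is limited by the number of arrays. The fit was tested on simulated data.

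Genes are named by a rule: those past the test, the 3 highest and 3 lowest with the same sign on every array of a comparison, isoform pairs, core subunits and the regulators, and up to 2 genes with the smallest p of each other list. Among the genes named outside this rule are Ckm, Acta1 and Cox7b, which were picked by hand. Members, lists and tests were chosen with earlier results of these data known. Alternatives changed the direction of the ratios, the dye term, scaling, probe summary, moderation, array weights, the replicate block and the arrays in the fit. Settings on shared values, on copies and Sdhaf genes, and with 3 and 7 days as deposited were chosen after seeing the data.

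Promoters are 1 per gene, the first listed for it. Scripts ran in Python 3 with pandas and matplotlib.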

Additional observations from a re-analysis of the deposited data

Results flagged for a closer look

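Among the named genes and the median of all 87, 66 groups of 4 arrays were searched for an array far from the other 3 by Dixon's criterion, which chance meets in about 1 in 20 groups. It was met 3 times. Ndufa10l1 had 0.34 on the first array at 3 days, against 0.05, 0.07 and 0.04 on the others. Atp5pd had 1.03 on the third array at 3 days, against 0.25, 0.14 and 0.19 on the others. Ndufa4 had −0.25 on the second array at 7 days, against 0.24, 0.16 and 0.23 on the others.

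Ndufs5 lay above 0 on every array in healthy arteries (fitted log2 ratio 0.14) and at 3 days (0.41), and below 0 on every array at 30 min (−0.32). The difference between 3 days and 30 min was not tested. The difference between 30 min and healthy arteries was −0.46 (SE 0.25, limma adjusted p = 1). As deposited, the ratio at 3 days was −0.10.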

How the results depend on the processing

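Over all results and alternatives, 377 values of counts and medians and 619 of named genes kept their direction and side of the threshold or moved by less than the spread between arrays. Of counts and medians 2 moved further, 8 became stronger and 10 weaker. Among named genes 15 values turned in direction, 1 became stronger and 8 weaker. Many alternatives left out 1 array, often of another comparison than that of the result, so the totals do not measure stability. With old versus young arrays as deposited, 3 genes passed the test at 3 days and 5 at 7 days, while the median at 3 days was 0.0034. In the differences from healthy arteries 1 passed at 3 days (Cox4i2, beside 2.02% of all genes) and 1 at 7 days (Cox6a2, beside 4.37%). With only 3 and 7 days as deposited the numbers were 3, 5 and, for the difference at 7 days, 1. The median at 3 days was again 0.0034. As deposited the direction turned for Ndufb7 (−0.040) and Ndufa13-ps1 (−0.056) in healthy arteries and Ndufa10l1 (−0.0015) at 30 min. In both settings it turned for Atp5hl1 (−0.18), Ndufs5 (−0.10) and Atp5pd (−0.24) at 3 days and for Cox7b2 (−0.29), Uqcrq (−0.23) and Cox4i1 (−0.032) at 7 days. Array weights gave 2 genes at 30 min, and the share of all genes in that setting is not given here. The number at 7 days was 0 with arrays scaled to the same spread, quantile normalization, only the arrays of the comparison, only old versus young arrays, array weights, both forms of the unmoderated test, and values shared by 20 or more probes left out. That last setting keeps 81 of the 87 genes, without Cox7b2. The cause of the other changes was not tested. The adjusted p of Cox7b2 ran from 0.0165 to 1 over its alternatives in limma and stayed under 0.05 in 23 of 33. Of the 33, 20 left out 1 array, and 17 of these kept the call. Most of the 17 left out an array of another comparison, where the ratio stayed at 0.71. The call was lost without replicate 1, 2 or 4 at 7 days.

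Leaving out each array in turn, the number of genes past the test stayed 0 in healthy arteries, at 30 min and at 3 days and ran from 0 to 1 at 7 days. It was 0 without the first or second array there, and without the fourth the 1 gene was Atp5mgl3 (−0.92, limma adjusted p = 0.0355) in place of Cox7b2, whose ratio ran from 0.63 to 0.81. In healthy arteries the median ran from 0.08 to 0.18, and at 30 min from −0.27 to −0.04. Its range was 0.08 to 0.12 at 3 days and lay between −0.03 and 0.03 at 7 days.

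After group means and the dye term were taken out, arrays of different comparisons with the same replicate number correlated at −0.45 to 0.37 (median −0.07). Those with different numbers gave −0.42 to 0.43 (median 0.05). With so few arrays in a group, this cannot show whether the numbers pair samples. With the replicate block the counts were 0, 0, 0 and 1 in healthy arteries and at 30 min, 3 days and 7 days, and the median at 30 min was −0.18. The block changed no call.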
